A study of Mus musculus with 14 samples.

Results

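The immunoproteasome subunits were followed in aged mouse brain as 5 genes, chosen by name from the 43346 genes of the deposited count table: Psmb8, Psmb9, Psmb10, Psme1 and Psme2. All 5 passed the filter on low values in each comparison. RNA was sequenced from a brain slice holding hippocampal and cortical tissue of 14 female mice aged 23 months, of the strain labelled C57BL/6;SJL-Tg. There were 4 non-transgenic (NTG) littermates and 5 APP/PS1 mice that drank the vehicle, 0.1% polyethylene glycol (PEG) in water, and 5 APP/PS1 mice that received CP2 at 25 mg/kg/day in the same vehicle from 9 months of age. APP/PS1 mice (genotype label APP/PS1 +/+) are double transgenic mice with familial Alzheimer's disease mutations in the amyloid precursor protein and presenilin 1 genes, which develop amyloid plaques. CP2 is a tricyclic pyrone that partially inhibits mitochondrial complex I. No NTG mouse given CP2 was analysed here, so the action of CP2 outside the transgenic background could not be examined.

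The proteasome is the barrel-shaped protease complex that degrades ubiquitin-tagged proteins in the cytosol and nucleus. Interferon-gamma and other inflammatory signals induce variants of its 3 catalytic subunits, which replace the constitutive ones in newly built particles: Psmb8 (LMP7) takes the place of Psmb5, Psmb9 (LMP2) that of Psmb6, and Psmb10 (MECL-1) that of Psmb7. Psme1 and Psme2 encode PA28 alpha and PA28 beta, which form a cap on the barrel. The immunoproteasome is known for cutting peptides that suit major histocompatibility complex (MHC) class I molecules, and in brain it is found mainly in microglia and other reactive glia rather than in neurons.

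Library totals lay between 70548781 and 106235625 counts, so that 1 count was worth 0.00918 to 0.0149 CPM (counts scaled to library size). APP/PS1 mouse 16 stood apart from the other 13 in its tissue: the summed level of 7 striatum markers was 1932 CPM in it and at most 287 CPM in any other mouse. Calls on the 5 genes, their ratios, the gene lists and the neighbouring genes were therefore also made without mouse 16. Changes in adjusted calls are given, and changes in unadjusted calls where such calls are printed here. For lists and neighbours this alternative was chosen after seeing the data. Neuron, astrocyte, oligodendrocyte and hippocampus and cortex markers were all detected in each group.

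Letters upstream of the RefSeq start are shown first for Psmb8, the subunit with the largest fold difference, and for Psmb10, the inducible catalytic subunit with the smallest. The 250 bases upstream of each RefSeq start (GRCm38.p6) were searched on both strands for GAAANNGAAA (ISRE, the element bound by interferon-activated ISGF3 and IRF factors), TTCNNNGAA (GAS, the interferon-gamma activated site) and the NF-kB consensus. Among the 5 genes, a match was found for Psmb8 only, a GAS 97 to 89 bases before its RefSeq start, and none was found in the windows of Psmb9, Psmb10, Psme1, either RefSeq start of Psme2, Psmb5, Psmb6 or Tap1. The windows of Psmb8, Psmb9 and Tap1 held 0 bases outside GENCODE exons, and that of Psme1 held 111. Sequence further upstream was not searched, so the absence of a match does not describe the whole promoter. Of 32851 RefSeq windows of that length, 2.98% held the ISRE letters, 7.02% the GAS letters and 7.25% the NF-kB letters, so a match is a description and not a bound site. The Psmb8 stretch lies at chr17:34198088-34198116 on the + strand, inside the 5′ untranslated region of the longer transcript Psmb8-201 in GENCODE M21, and the GAS letters are in capitals. Psmb8-201 is the transcript taken as principal below, so the stretch is transcribed in it. The Psmb10 stretch lies at chr8:105938445-105938642 on the - strand, the part of its window outside every GENCODE exon. The rest of the window (chr8:105938393-105938642), nearest the start, is exonic and is not shown. The stretch holds no capitals because the whole window holds none of the 3 motifs.
Psmb8: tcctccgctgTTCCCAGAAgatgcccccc
Psmb10: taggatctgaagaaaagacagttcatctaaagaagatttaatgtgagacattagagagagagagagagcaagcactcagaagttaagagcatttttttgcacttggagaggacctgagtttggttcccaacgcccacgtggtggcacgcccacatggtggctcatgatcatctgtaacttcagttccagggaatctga

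The question of whether the subunits differ between plaque-bearing and normal aged brain was addressed by comparing vehicle-treated APP/PS1 with NTG mice. Psmb8 and Psmb9 were higher in APP/PS1 mice, by 3.11-fold and 2.33-fold of the group mean CPM, whereas Psmb10 differed by 1.06-fold, Psme1 by 1.17-fold and Psme2 by 1.15-fold. By edgeR's quasi-likelihood test with Benjamini-Hochberg adjustment over 16417 genes, 2 of the 5 genes passed an adjusted p of 0.05, both higher; 4.34% of all genes tested did so in that direction. At an unadjusted p of 0.05, the cutoff the study used with DESeq2, 3 of 5 were higher by edgeR against 10.6% of all genes. In bulk tissue, a larger number of cells of a type and more RNA per cell cannot be told apart.

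Psmb8 (ENSMUSG00000024338, chr17:34197721-34201454 in the deposited mm10 annotation) encodes the inducible subunit with chymotrypsin-like activity. Its level was 2.55, 3.35, 3.12 and 3.36 CPM in the 4 NTG mice. It was 6.77, 9.25, 12.9, 9.98 and 9.10 CPM in vehicle-treated APP/PS1 mice 16 to 20. In mice 21 to 25, given CP2, it was 8.06, 7.39, 6.78, 5.96 and 7.21 CPM. Every APP/PS1 mouse, treated or not, lay above every NTG mouse, with mouse 18 the highest of all 14. The log2 fold change in APP/PS1 against NTG was 1.64 ± 0.18 (SE), with an adjusted p of 0.000597 by edgeR, and it stayed between 1.505 and 1.739 when any 1 mouse was left out.

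Psmb9 (ENSMUSG00000096727, chr17:34181988-34187764) encodes the inducible subunit in the caspase-like position. NTG mice had 1.721, 2.232, 2.442 and 1.903 CPM of it. The vehicle-treated APP/PS1 mice had 2.68, 4.27, 7.70, 4.91 and 4.58 CPM. The CP2-treated mice had 3.46, 3.71, 3.52, 3.21 and 3.68 CPM. The groups again did not overlap with NTG, but mouse 16 lay 0.233 CPM above the highest NTG mouse and mouse 18 stood far above its group. The log2 fold change in APP/PS1 was 1.22 ± 0.27 (SE, edgeR adjusted p = 0.0241). This call was less firm than that of Psmb8: the adjusted p rose to between 0.0531 and 0.0718 when NTG mouse 7, 8, 9 or 10 or APP/PS1 mouse 19 was left out.

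Psmb10 (ENSMUSG00000031897, chr8:105935728-105938392) encodes the inducible subunit with trypsin-like activity. Its levels were 30.8, 31.2, 32.9 and 29.8 CPM in NTG mice. They were 30.0, 33.6, 33.8, 35.6 and 32.9 CPM in vehicle-treated APP/PS1 mice. CP2-treated mice had 29.6, 30.4, 29.3, 26.3 and 27.3 CPM. The NTG and APP/PS1 ranges overlapped, and the difference did not pass the test (log2 fold change 0.09 ± 0.06, adjusted p = 0.451). The overlap came from mouse 16: the next lowest APP/PS1 mouse had 32.933 CPM and the highest NTG mouse 32.885 CPM. Without mouse 16 the log2 fold change was 0.12 ± 0.05, past the unadjusted threshold but not the adjusted one. The Psmb8 level as a percent of Psmb10 per length (RPKM, counts scaled to gene length and library size) was 3.84 to 5.23 in NTG mice, 10.5 to 17.8 in APP/PS1 and 10.5 to 12.6 in CP2-treated mice, a ratio formed after the values were seen and therefore given without a test. On the length of the principal transcripts these percents were 6.66 to 9.07, 18.2 to 30.8 and 18.3 to 21.9.

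Psme1 (ENSMUSG00000022216, chr14:55578123-55581529) encodes the alpha chain of the PA28 cap. NTG mice had 27.77, 26.67, 25.98 and 26.42 CPM, APP/PS1 mice 27.8, 31.9, 34.3, 30.4 and 31.7 CPM, and CP2-treated mice 29.3, 29.5, 27.8, 27.9 and 28.2 CPM. The lowest APP/PS1 mouse, mouse 16, was separated from the highest NTG mouse by only 0.0687 CPM. The log2 fold change of 0.23 ± 0.06 missed the adjusted threshold (adjusted p = 0.0660) and passed the unadjusted one. It passed the adjusted one with an adjusted p of 0.0112 without mouse 16, and of 0.0109 by DESeq2, 0.0171 in a fit of all 3 groups and 0.00975 by limma-voom. Over all genes, in both directions, 1474 of 16523 passed without mouse 16, against 932 of 16417 in the main fit. DESeq2, the fit of all 3 groups and limma-voom called 1667, 1297 and 1563 of 16417. Under other edgeR settings the adjusted p of Psme1 reached 0.129, and with 1 mouse left out it reached 0.180.

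Psme2 (ENSMUSG00000079197, chr14:55587441-55591113) encodes the beta chain of PA28 and lies beside Psme1. Its levels were 15.44, 17.02, 17.13 and 13.57 CPM in NTG mice, 15.81, 17.34, 21.26, 18.27 and 17.76 CPM in APP/PS1 mice and 17.42, 17.99, 17.33, 16.41 and 15.37 CPM in CP2-treated mice. The groups overlapped, and the log2 fold change was 0.20 ± 0.10 (adjusted p = 0.325). Between APP/PS1 and NTG mice the overlap again came from mouse 16. The next lowest APP/PS1 mouse had 17.34 CPM and the highest NTG mouse 17.13 CPM. Without mouse 16 the log2 fold change was 0.24 ± 0.09, past the unadjusted threshold but not the adjusted one. Psme2b on chromosome 11 is a near copy of Psme2 with 83 to 175 counts per library against 1144 to 2315 for Psme2, and reads could be split between them. In all, 3 of the 5 genes (Psmb8, Psmb9 and Psme1) had no overlap between APP/PS1 and NTG mice, against 6.13% of all genes tested in that direction.

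**Figure D1:**
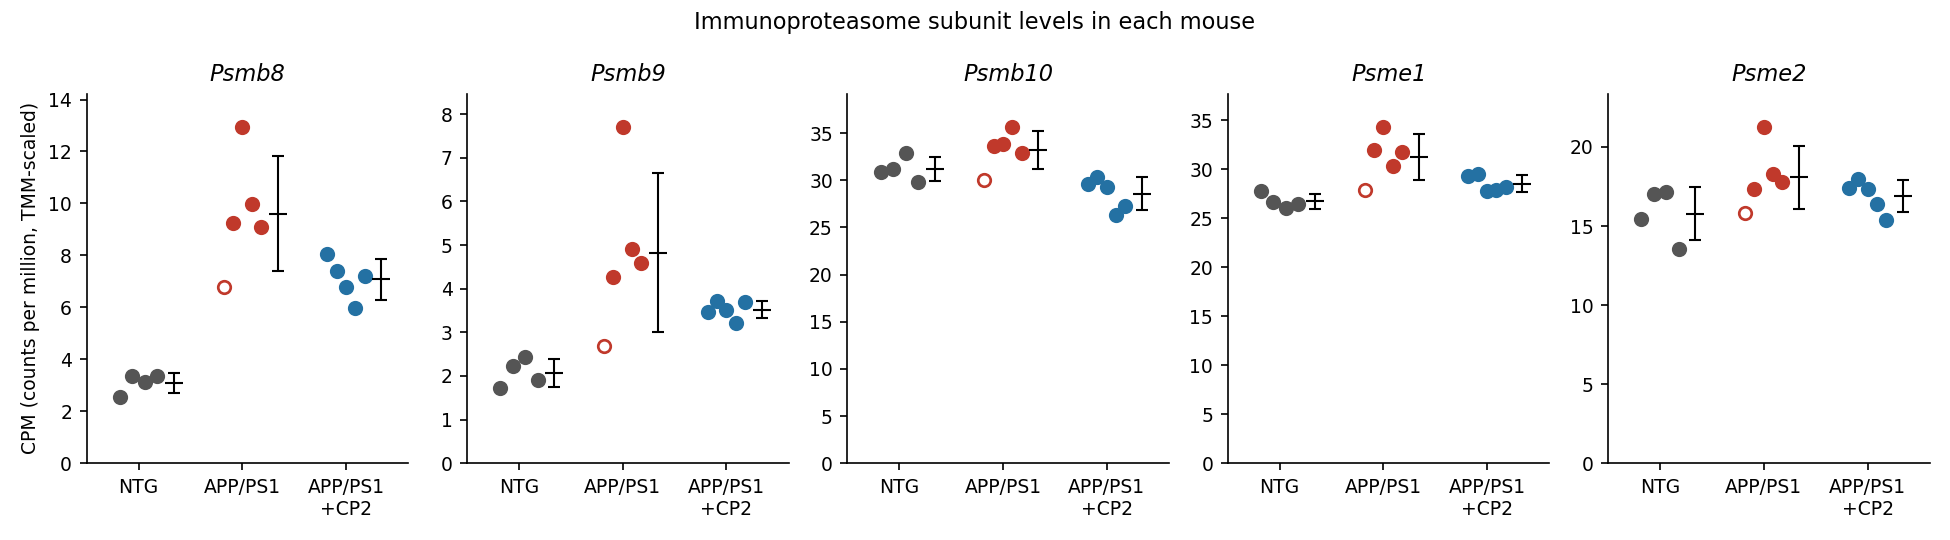
Level of each immunoproteasome subunit (CPM, vertical axes from 0) in each mouse of the 3 groups; the open circle is APP/PS1 mouse 16 and the bar beside each group is its mean ± SD. Psmb8 rises from 3.09 CPM in NTG to 9.61 CPM in APP/PS1 mice on average and Psmb9 from 2.07 to 4.83 CPM, while the Psmb10 groups overlap.

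Whether CP2 changed the subunits in plaque-bearing mice was addressed by comparing treated with vehicle-treated APP/PS1 mice. All 5 fitted values were lower with CP2, as were those of 8617 of all 16407 genes tested. None of the 5 passed an adjusted p of 0.05 (edgeR adjusted p between 0.744 and 0.797), and DESeq2 also called 0 of the 5. By edgeR, 0.00609% of all genes tested, that is 1 gene, passed as lower. At an unadjusted p of 0.05, 3 of 5 were lower against 3.66% of all genes. These were Psmb8 with a log2 fold change of -0.45 ± 0.15 (SE), Psmb10 with -0.22 ± 0.06 and Psme1 with -0.13 ± 0.05. Psmb9, with the widest spread, had the value -0.46 ± 0.22 and Psme2 -0.10 ± 0.08, and neither passed. DESeq2, limma-voom, a fit of all 3 groups and a fit without the filter each gave 4 of 5 at this threshold, with Psmb9 added. Over all genes, in both directions, the first 3 of these called 1262, 1360 and 1176 of 16407. The fit without the filter called 1779 of 33733, and the main fit 1074 of 16407. The paper, which used DESeq2 and the unadjusted cutoff, listed Psmb8 and Psmb9 among immune genes lowered by CP2.

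None of the 5 genes was free of overlap between treated and untreated APP/PS1 mice, where 0.616% of all genes were, as lower. For each gene the overlap came from mouse 16, the lowest of the APP/PS1 mice in all 5, and for Psme2 from other mice too. Without mouse 16 the log2 fold changes of Psmb8, Psmb9, Psmb10 and Psme1 were -0.55, -0.61, -0.25 and -0.17. All 4 then passed the unadjusted threshold, and the adjusted p of the 5 genes lay between 0.237 and 0.538. Calls over all genes rose too: 873 of 16503 were lower at an unadjusted p without mouse 16, against 601 of 16407 with it. Without mouse 18, the highest in Psmb8, Psmb9, Psme1 and Psme2, the log2 fold changes moved the other way, to -0.315 for Psmb8, -0.229 for Psmb9, -0.215 for Psmb10, -0.100 for Psme1 and -0.0384 for Psme2. Then 2 of the 5 genes were left at an unadjusted p of 0.05, Psmb8 and Psmb10. As many as 2 were also left without mouse 20, 23 or 24. Over all genes, in both directions, 1094 of 16436 passed that threshold without mouse 18. Without mouse 20, 23 and 24 these were 1242 of 16446, 1068 of 16487 and 642 of 16445. The sum of the 5 genes in CPM was 75.1 to 81.6 in NTG, 83.1 to 110.0 in APP/PS1 and 79.7 to 89.0 in CP2-treated mice.

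CP2-treated APP/PS1 mice were also compared with NTG mice; this comparison shares its mice with the other 2, so its values stand beside theirs and are no independent evidence. Psmb8 and Psmb9 were higher here too, by 2.29-fold and 1.70-fold of the mean CPM (log2 fold change 1.19 ± 0.12, adjusted p = 0.000352, and 0.76 ± 0.12, adjusted p = 0.00326). Thus 2 of 5 passed the adjusted test as higher against 4.56% of all genes, and the same 2 genes had no overlap with NTG against 6.41% of all genes. In a fit of all 3 groups Psmb9 had an adjusted p of 0.0750. At an unadjusted p of 0.05, Psme1 joined them as higher (0.10 ± 0.04), 3 of 5 against 11.6% of all genes. Psmb10 was lower at that threshold (-0.13 ± 0.05), 1 of 5 against 8.59% of all genes. Psme2 had the value 0.10 ± 0.08 and passed neither threshold.

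**Figure D2:**
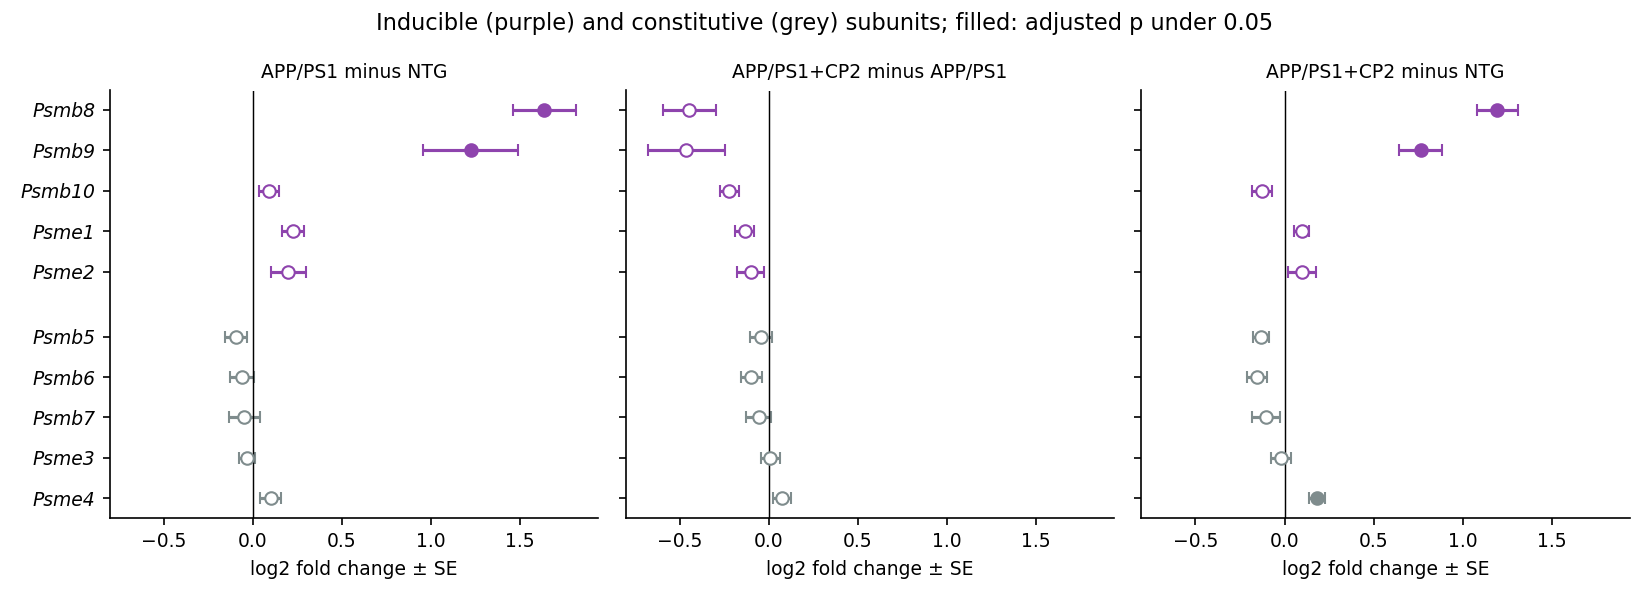
Log2 fold change ± SE (edgeR) of the 5 inducible subunits (purple) and of 5 constitutive counterparts (grey) in each of the 3 comparisons; filled points have an adjusted p under 0.05. In APP/PS1 against NTG mice Psmb8 stands at 1.64 and Psmb9 at 1.22, and no grey point is filled, while no point is filled for CP2 against vehicle.

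No rise of the constitutive counterparts was detected in APP/PS1 mice. Psmb5, Psmb6 and Psmb7, the catalytic subunits that the inducible ones replace, had log2 fold changes of -0.10, -0.06 and -0.05 in APP/PS1 against NTG mice, and Psme3 (PA28 gamma, the nuclear cap) and Psme4 (PA200, a cap with roles in the nucleus) had -0.03 and 0.10. None of these 5 passed the adjusted or the unadjusted threshold in that comparison or between treated and untreated APP/PS1 mice, except that Psme4 passed the unadjusted one in the latter without mouse 16 (0.11, higher with CP2). In CP2-treated against NTG mice Psme4 was higher (0.18 ± 0.05, adjusted p = 0.0410). Psmb5 (-0.13 ± 0.05) and Psmb6 (-0.15 ± 0.06) were lower at an unadjusted p only.

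Levels can be compared between genes only per length. Mean RPKM in NTG mice was 19.7 for Psmb10, 9.71 for Psme1, 7.17 for Psme2, 0.907 for Psmb8 and 0.454 for Psmb9, and the ranges of neighbours in this order did not overlap. The order was the same in APP/PS1 mice, at 21.9, 11.9, 8.60, 2.95 and 1.11 RPKM, and in CP2-treated mice, at 18.6, 10.7, 7.93, 2.14 and 0.795 RPKM. The deposited RPKM divide by a gene length that joins the exons of several transcripts, 2736 bases for Psmb8, 3659 for Psmb9, 2209 for Psme1 and 1270 for Psmb10. Rescaled to the principal transcript in GENCODE M21, of 1628, 1352, 1112 and 1311 bases, Psmb10 (19.1 RPKM) and Psme1 (19.3 RPKM) had like means in NTG mice and Psmb8 and Psmb9 stayed lowest at 1.52 and 1.23 RPKM. Under either length Psmb8 and Psmb9 were the least abundant of the 5.

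The ratio of each inducible subunit to the constitutive one it replaces does not depend on scaling between libraries. Psmb8 in percent of Psmb5 (RPKM) was 1.01 to 1.38 in NTG mice, 3.06 to 5.37 in APP/PS1 mice and 2.59 to 3.57 in CP2-treated mice. Psmb9 in percent of Psmb6 was 1.160 to 1.827, 2.223 to 5.578 and 2.708 to 3.198 in the same order. Both ratios were above the NTG range in all 10 APP/PS1 mice. The percents depend on the gene length: on principal transcript lengths Psmb8 was 1.75 to 2.40% of Psmb5 in NTG mice, 5.32 to 9.31% in APP/PS1 mice and 4.49 to 6.20% in CP2-treated mice, 1.73 times the values above in every mouse, and the percents of Psmb6 were 1.15 times those above. The same factor applies to every mouse, so differences of the log2 ratio between groups are not touched by it.

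Of the 9 two-sided exact permutation tests on the log2 ratio, 4 passed after Benjamini-Hochberg adjustment over the 9. The mean log2 ratio of Psmb8 to Psmb5 was higher than in NTG by 1.71 in APP/PS1 and by 1.33 in CP2-treated mice, and that of Psmb9 to Psmb6 by 1.21 and 0.92 (exact permutation p = 0.0159 each, the smallest that 4 against 5 mice allow, adjusted p = 0.0357). Between treated and untreated APP/PS1 mice the values were -0.38 (exact permutation p = 0.0635, adjusted 0.107) and -0.29 (p = 0.238, adjusted 0.268, exact permutation). Leaving out mouse 16 moved them to -0.48 and -0.45, each with an adjusted exact permutation p of 0.0476. No other omission gave a pass. Over all omissions the values reached -0.28 and -0.12 at the other end, with adjusted exact permutation p up to 0.214 and 0.536. The third ratio, Psmb10 to Psmb7, was 25.6 to 31.4% in NTG, 28.7 to 34.2% in APP/PS1 and 25.5 to 30.1% in CP2-treated mice, and its exact permutation tests gave adjusted p between 0.107 and 0.730.

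**Figure D3:**
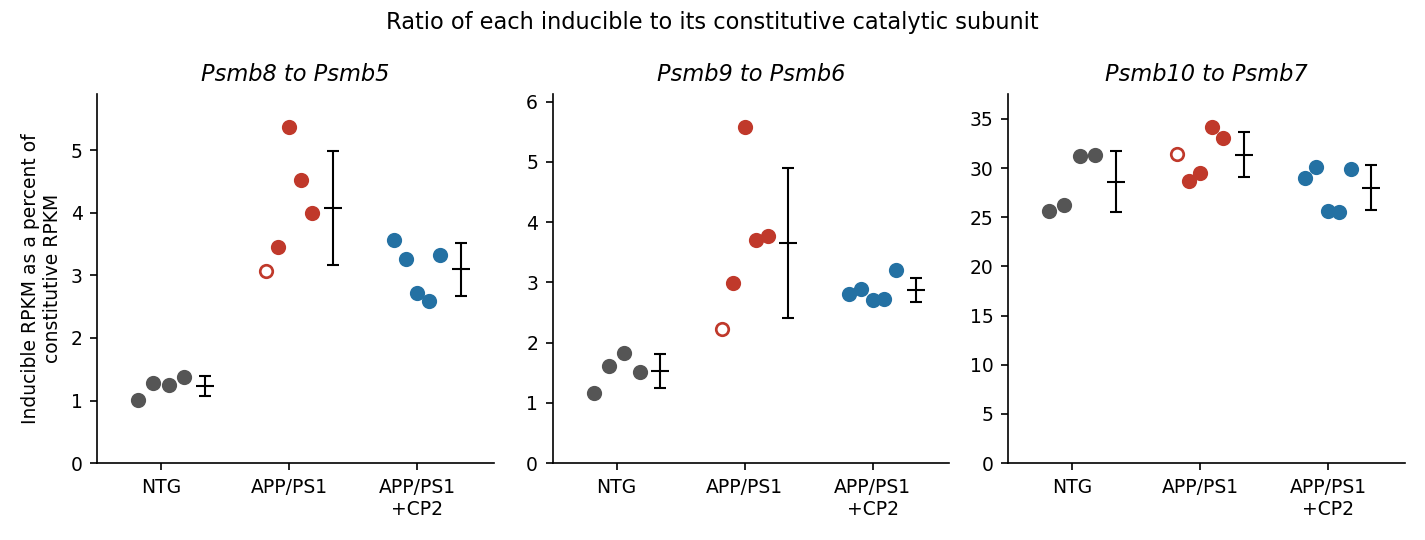
RPKM of each inducible catalytic subunit as a percent of the RPKM of the constitutive subunit it replaces (vertical axes from 0) in each mouse, with the mean ± SD of each group; the open circle is APP/PS1 mouse 16. Psmb8 to Psmb5 lies at 1.01 to 1.38% in NTG and at 2.59% or more in all 10 APP/PS1 mice, whereas Psmb10 to Psmb7 overlaps between the 3 groups.

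The rest of the proteasome was described from lists of its parts, beside a median log2 fold change over all genes tested of -0.0042 in APP/PS1 against NTG mice and a median over the 5 inducible genes of 0.23. Of 14 constitutive subunits of the 20S core, 0 passed the adjusted threshold in that comparison, and 0 at an unadjusted p, by edgeR, with a median of -0.04 and values from -0.11 to 0.09. The 3 with the smallest p were Psmb5, Psmb2 (0.09, adjusted p = 0.476) and Psmb4 (-0.08, adjusted p = 0.519). Of 18 subunits of the 19S regulator, which recognises and unfolds ubiquitin-tagged proteins, 0 passed either threshold, with values from -0.07 to 0.09. Psmd11, Psmd13 and Psmd8 had the smallest p, with values of 0.09, -0.07 and -0.07. Between treated and untreated APP/PS1 mice, all 14 core subunits had negative values (median -0.07, -0.16 to -0.04), but 0 passed the adjusted threshold and 2 the unadjusted one. Of the 18 regulator subunits 17 had negative values (median -0.07, -0.11 to 0.01). Of these 18, 0 passed either threshold, and 1 the unadjusted one without mouse 16.

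Among 9 tested assembly and accessory genes 0 passed the adjusted threshold in any comparison, and 1, 1 and 2 the unadjusted one, all lower. Pomp, the maturation factor that helps build new proteasomes and immunoproteasomes, had a log2 fold change of -0.05 ± 0.09 in APP/PS1 against NTG mice (adjusted p = 0.826) and of -0.15 ± 0.07 with CP2 against vehicle (adjusted p = 0.748). Psmg3, a core assembly chaperone, was lower in APP/PS1 at an unadjusted p only (-0.16 ± 0.06), and not without mouse 16. The tissue-specific subunits Psma8 (testis) and Psmb11 (thymus) were too low to be tested, with 10 to 73 and 8 to 61 counts per library.

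Class I presentation takes up the peptides that the proteasome cuts. Of 11 genes for peptide transport, trimming and class I loading, 5 were higher in APP/PS1 than NTG mice by adjusted p (median over the list 0.35), 0 passed between treated and untreated APP/PS1 mice (1 at an unadjusted p, B2m, lower), and 5 were higher in CP2-treated than NTG mice. Without mouse 16, 7 were higher in APP/PS1 mice, with Erap1 (0.44, adjusted p = 0.00178) and Tap2 (0.42, adjusted p = 0.0383) added, and 5 were lower with CP2 at an unadjusted p, none at an adjusted one. Calls over all genes rose too. As higher in APP/PS1 mice by adjusted p, 1094 of 16523 passed without mouse 16, against 712 of 16417 with it. As lower with CP2 at an unadjusted p, these were 873 of 16503 against 601 of 16407. B2m, the invariant light chain of class I molecules, averaged 71.8 CPM in the NTG group, 201 in the vehicle-treated APP/PS1 group and 148 in the CP2 group (log2 fold change in APP/PS1 1.49 ± 0.20, adjusted p = 0.00161). H2-K1, a class I heavy chain whose reads can be shared with its close relatives, had 1.36 ± 0.25 (adjusted p = 0.0117). Tap1, a subunit of the transporter that carries proteasome-cut peptides into the endoplasmic reticulum, had 1.23 ± 0.24 (adjusted p = 0.0141). Calr, Canx and Pdia3, general chaperones of the endoplasmic reticulum, had values of -0.04, 0.04 and 0.08 with adjusted p of 0.465 or more; these 3 were chosen after their values were seen.

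Of 19 genes of interferon and tumour necrosis factor signalling, 16 could be tested, and 7 were higher in APP/PS1 than NTG mice by adjusted p (median over those tested 0.32). Ordered by role, the ligands were scarce: Ifng had 0 to 9 counts per library, Ifnb1 0 to 2 and Tnf 2 to 42, all below the filter. Among receptors, Ifnar2 (0.51 ± 0.07, adjusted p = 0.00174), a chain of the type I interferon receptor, and Ifngr1 (0.39 ± 0.06, adjusted p = 0.00465), the binding chain of the interferon-gamma receptor, were higher. Their partner chains did not pass the test, with values of 0.05 ± 0.06 for Ifnar1 (adjusted p = 0.703) and -0.0056 ± 0.06 for Ifngr2 (adjusted p = 0.976); both were named after their values were seen. Irf9, the DNA-binding part of ISGF3, had 0.88 ± 0.13 (adjusted p = 0.00285).

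Chosen after their values were seen, Nlrc5, the transactivator of class I genes that also acts on Psmb9 and Tap1, had group means of 1.56, 5.09 and 3.26 CPM (NTG, APP/PS1, CP2; log2 fold change in APP/PS1 1.71 ± 0.29, adjusted p = 0.00701). Irf1, a factor known to drive the shared Psmb9 and Tap1 promoter, had 0.51 ± 0.14 (adjusted p = 0.0690), and 0.59 ± 0.12 without mouse 16 (adjusted p = 0.0138), where 9 of the 16 were higher. Over all genes, 1094 of 16523 were then higher by adjusted p, against 712 of 16417 with mouse 16. None of the 16 passed the adjusted threshold between treated and untreated APP/PS1 mice (edgeR; 1 at an unadjusted p, Nlrc5, at -0.65 ± 0.25, and 5 without mouse 16), and 7 were higher in CP2-treated than NTG mice.

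**Figure D4:**
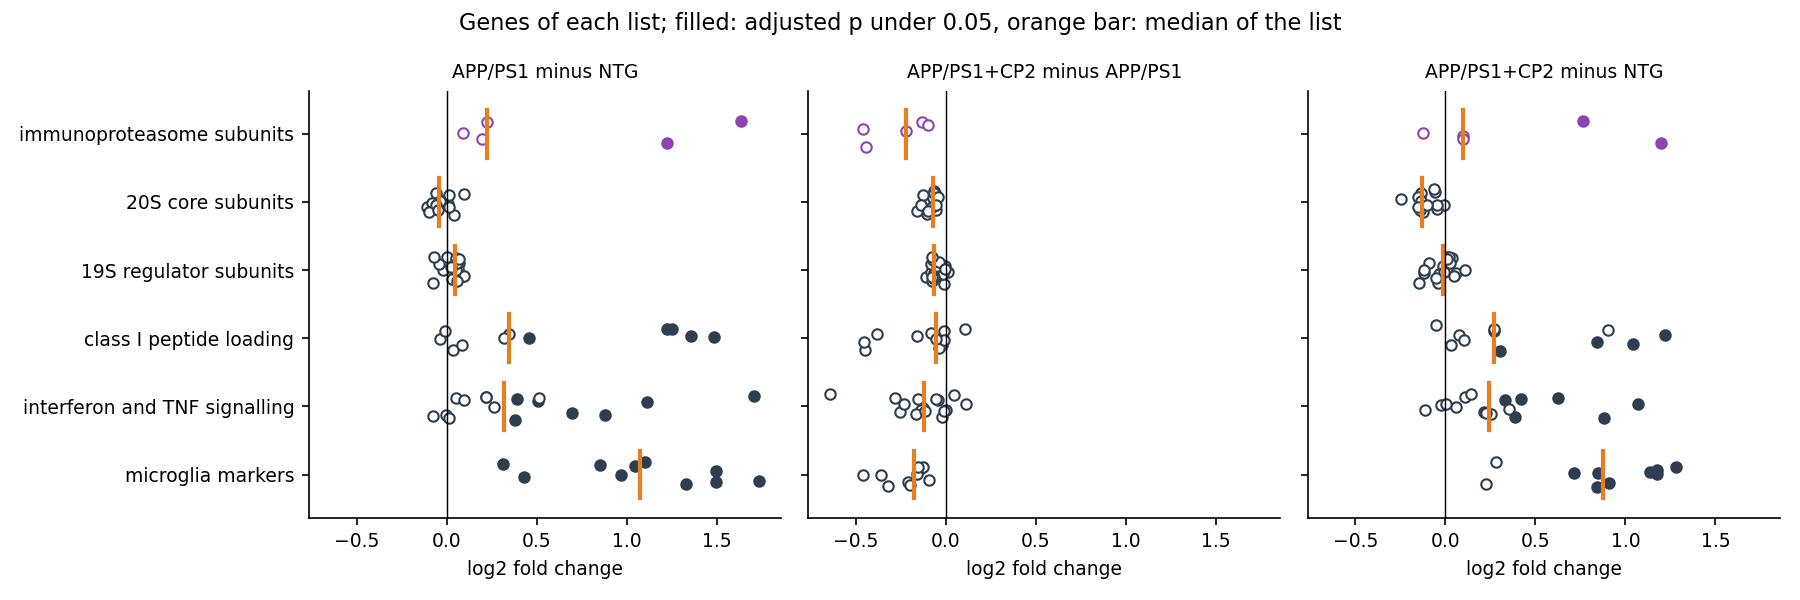
Log2 fold change (edgeR) of each tested gene in 6 lists for the 3 comparisons; filled points have an adjusted p under 0.05 and the orange bar is the median of the list. In APP/PS1 against NTG mice the 14 constitutive core genes lie between -0.11 and 0.09, whereas 2 of 5 immunoproteasome, 5 of 11 class I loading, 7 of 16 signalling and 10 of 10 microglia points are filled; none is filled for CP2 against vehicle.

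Markers of cell types that could carry these transcripts were examined beside them. All 10 microglia markers were higher in APP/PS1 than NTG mice by adjusted p (median log2 fold change 1.08), among them Csf1r (1.05) and C1qa (1.74). Their summed level was 443 to 459 CPM in NTG mice, 821 to 1250 without CP2 and 728 to 1051 with CP2 in APP/PS1 mice, with none of the 10 at 0 in any group. Between treated and untreated APP/PS1 mice 0 of 10 passed the adjusted threshold and 1 the unadjusted one, C1qa, lower (3 without mouse 16), and 8 of 10 were higher in CP2-treated than NTG mice. The part of these cells in the levels of Psmb8, Psmb9, Psmb10, Psme1 and Psme2 was not tested.

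T cells, which use immunoproteasomes constitutively, left few counts. The summed level of 7 T cell markers was 3.04 to 4.60 CPM in NTG mice and, in APP/PS1 mice, 5.45 to 7.78 without CP2 and 4.04 to 5.59 with it. Of these markers 2 could be tested, and 0 passed the adjusted threshold. In APP/PS1 against NTG mice 1 passed the unadjusted one, and 2 did so without mouse 16. The defining marker Cd3e had 0 to 34 counts per library. B cell markers summed to at most 1.66 CPM in any mouse, and none of the 4 could be tested. Endothelium markers summed to 214 to 231, 221 to 300 and 233 to 278 CPM in the 3 groups (1 of 7, Pecam1, higher in APP/PS1 by adjusted p, and 3 without mouse 16), and haemoglobin and red cell markers to 82.5 to 151, 113 to 472 and 136 to 443 CPM (2 of 5 higher). Their part in the results was not tested either. Over all genes, 712 of 16417 were higher in APP/PS1 mice by adjusted p, and 1094 of 16523 without mouse 16. Of 6 astrocyte markers 1, Slc1a2, was lower in APP/PS1 by adjusted p, and 3 were lower at an unadjusted p (2 without mouse 16). Their summed level was 3826 to 4584 CPM in NTG, 3332 to 3810 in APP/PS1 and 3576 to 3850 in CP2-treated mice. The part of this difference in the results was not tested. Of the 6 neuron, 5 oligodendrocyte and 8 hippocampus and cortex markers 0 passed the adjusted threshold by edgeR, with 2 of the last list lower at an unadjusted p. Without mouse 16, 1 neuron marker (Gad1) was lower and 1 astrocyte marker (Aqp4) higher by adjusted p.

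The 5 genes lie in 3 places in the genome. Psmb8 and Psmb9 flank Tap1 in the class II region of the MHC on chromosome 17, where Tap1 and Psmb9 start head to head. Of 10 other tested genes within 100 kb of this pair, 4 were higher in APP/PS1 than NTG mice by adjusted p: Tap1, H2-DMa (0.56) and H2-Ab1 (1.40), which serve class II presentation, and Gm20496 (1.15). Without mouse 16 there were 5, Tap2 included, while over all genes 1094 of 16523 were higher, against 712 of 16417 with it. In CP2-treated against NTG mice 4 were higher, Tap1, Gm20496, H2-Ab1 and Tap2, a partner of Tap1. Of 10 tested neighbours of Psmb10 on chromosome 8, 0 passed in any comparison by adjusted p, and 0 at an unadjusted p. Of 15 neighbours of Psme1 and Psme2 on chromosome 14, 1 passed, Irf9, in APP/PS1 and in CP2-treated against NTG mice. No neighbour passed the adjusted threshold between treated and untreated APP/PS1 mice by edgeR. At an unadjusted p, 1 neighbour of Psmb8 and Psmb9 was lower, and of those of Psme1 and Psme2 1 was higher and 2 were lower. Without mouse 16, Tap1 and Gm20496 in the first place and Irf9 and Pck2 in the second were lower at an unadjusted p as well.

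Neighbouring genes can also share reads. The library kit does not mark strand and a read was counted on every gene it overlapped, so counts from overlapping exons could not be told apart. Gm20496 is annotated antisense to Psmb8 and shares 498 exon bases with it, 14.7% of the Psmb8 exons. Psmb9 and Tap1 share 212 exon bases, 5.79% of those of Psmb9, and Psme1 shares 14 bases with Emc9. Of the constitutive subunits used in the ratios, Psmb7 shares 405 exon bases (11.8%) with Nek6 and Psmb5 109 (12.1%) with Mir686. What these shared bases add to the ratios was not tested.

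The 5 genes were not equally tied across mice. Over the 14 mice, Pearson's r of log2 CPM was 0.94 for Psmb8 with Psmb9, 0.84 for Psmb8 with Psme1, 0.66 for Psmb8 with Psme2 and 0.25 for Psmb8 with Psmb10. On deviations from the group means, which takes out the difference between groups, the values were 0.88, 0.69, 0.60 and 0.59. These points share library depth and tissue composition, and the values are descriptions with no test. Mouse 18 was the highest of the 14 in Psmb8, Psmb9, Psme1 and Psme2, and mouse 19 in Psmb10.

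The 8 tested genes whose pattern was most like the mean of the 5 standardised genes over the 14 mice were Iigp1, AW112010, Cebpd, Ly6a, Ube2l6, Irgm1, Uap1l1 and RP23-448A11.8, with Pearson's r from 0.94 down to 0.92. On deviations from the group means r was between 0.79 and 0.86. Iigp1 and Irgm1 are interferon-inducible GTPases, Ube2l6 is the conjugating enzyme for the ubiquitin-like protein ISG15, Ly6a encodes the surface protein Sca-1 and Cebpd a transcription factor of inflammation. Irgm1 had a mean of 8.15 CPM in the NTG group, 19.4 in the APP/PS1 group and 13.9 in the CP2 group. Because these genes were picked for a pattern that includes the difference between groups, no test between groups is given for them.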

How the data were processed

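Female NTG, APP/PS1 and CP2-treated APP/PS1 mice were grouped by title and genotype labels (4, 5 and 5 mice, 1 library each). Per the study's methods and labels, RNA was sequenced with a kit that does not mark strand and aligned with TopHat2 to mm10 within the MAP-RSeq pipeline. The authors deposited gene-level counts from featureCounts, a read counting on every gene it overlaps, and RPKM values computed from those counts with a joined exon length; the strand setting and the versions of the aligner and counter were not given in the sources used here. All value columns were mapped to a mouse.

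Counts were tested with edgeR 4.0.16 (quasi-likelihood, TMM, R 4.3.3) on each pair of groups, for genes with a robust CPM above 1 in every mouse of at least 1 group, the filter of the study; p-values were adjusted by Benjamini-Hochberg over all genes tested. CPM (counts scaled to library size with TMM) were computed here. Log2 ratios of the deposited RPKM were compared by exact permutation (scipy 1.17.1). The alternatives were DESeq2 1.42.0, limma-voom 3.58.1, other scalings and filters, 1 joint fit, the ribosomal RNA share as covariate, an added 0.1 RPKM, and leaving out each mouse. Scripts were tested on simulated data. Library totals of 70548781 to 106235625 counts set the precision, and the spread between mice covers the rest. Exons came from GENCODE M21 and upstream windows from RefSeq (GRCm38.p6), in which 4 of the 5 genes had 1 start and Psme2 had 2.

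Named genes were the 5 subunits, their counterparts and Pomp, up to 3 genes per other list by smallest p in APP/PS1 against NTG, adjusted-called neighbours within 100 kb, and 8 genes by likeness; others are said to be chosen later. Some genes of the lists are counted but not reported here by name. The genes and lists were chosen with earlier results of these data known.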

Additional observations from a re-analysis of the deposited data

How the results depend on the processing

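Psmb8 stayed above NTG in both groups of APP/PS1 mice, past the adjusted threshold, under every alternative run. The number of subunits past the adjusted threshold in CP2-treated against NTG mice fell from 2 to 1 when all 3 groups were fitted together, and the number at an unadjusted p fell from 4 to 2 with the ribosomal RNA share as covariate. Over all 16416 genes, in both directions, adjusted calls fell from 989 to 703 in the former. Unadjusted calls over all genes fell from 3312 to 3044 with the covariate. Leaving out each mouse gave 1 to 3 adjusted and 3 to 5 unadjusted calls in APP/PS1 against NTG, 0 adjusted and 2 to 4 unadjusted in CP2-treated against vehicle-treated mice, and 2 adjusted and 2 to 4 unadjusted in CP2-treated against NTG mice. The unadjusted count in the last fell to 2 without NTG mouse 8 or 9 or CP2-treated mouse 24 or 25, and in APP/PS1 against NTG rose to 5 without mouse 16. The cause was not tested. Over all genes, in both directions, leaving out each mouse gave 578 to 1474 adjusted and 2512 to 3649 unadjusted calls in APP/PS1 against NTG. In CP2-treated against vehicle-treated mice these were 0 to 1 and 642 to 1575. In CP2-treated against NTG mice they were 572 to 1123 and 2749 to 3667.

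Leaving out each mouse, the log2 ratio of Psmb8 to Psmb5 ranged from 1.61 to 1.81 in APP/PS1 against NTG, -0.48 to -0.28 in CP2-treated against vehicle-treated mice and 1.24 to 1.39 in CP2-treated against NTG. That of Psmb9 to Psmb6 ranged from 1.04 to 1.37, -0.45 to -0.12 and 0.80 to 1.02. That of Psmb10 to Psmb7 ranged from 0.09 to 0.18, -0.20 to -0.13 and -0.078 to 0.019, turning positive in the last without mouse 9, 10, 23 or 24 (0.016, 0.019, 0.0038 and 0.0052). Ratio calls against NTG were mostly lost because fewer mice allow no exact permutation p under 0.0286 or 0.0357. No paired analysis was possible because the groups share no replicate numbers. Psmb8 and Psmb9 rest on 150 to 1409 counts per library, fewer than the other 3 genes.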
